A study of Mus musculus with 6 samples.

Results

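The genes described are the chemokine ligands and chemokine receptors of the mouse, apart from Cxcl12 and Cxcr4, as measured in NMuMG, a line of immortalised mouse mammary epithelial cells. A gene was taken when its annotated symbol began with Ccl, Cxcl, Ccr or Cxcr and a digit, or with Cx3c, and when it had a probe set with only that symbol. This gave 46 genes, 31 ligands and 15 receptors, of 18193 genes measured. Where a gene had several probe sets, which are groups of short probes against one stretch of a transcript, the one with the highest mean over all 6 arrays was used. Over all 18193 genes measured, 12140 lay above the array median in at least 1 group. Of the 46 genes, 23 lay above it in at least 1 group, 18 ligands and 5 receptors, and the other 23 lay below it in every group. The gene closest above that line was Ccl6, whose best group mean was 0.068 over the median on the log2 scale, and the closest below was Ccl28, at -0.148.

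The arrays fell into 3 groups of 2. The withdrawal cells had received TGF-β at 4 ng/ml for 11 days and were then kept without it for a further 13 days. The TGF-β cells were harvested after the 11 days at 4 ng/ml, and the control cells had received vehicle. All were grown in DMEM with serum and insulin. The withdrawal cells were therefore also in culture longer than the TGF-β cells, and the 2 differences cannot be told apart. The labels do not give the day on which control cells were harvested, so their time in culture beside the other groups is not known. The line is a single immortalised line and stands in for mammary epithelium only to that extent. Nothing in the labels ties the 2 arrays of a group to different cultures, and p-values therefore measure only the spread between these arrays, which may be technical. The free-text description of the samples names the withdrawal and TGF-β states the other way round from the titles and treatment entries, which were followed here. On the arrays titled TGF-β the contractile gene Acta2 was at 13.63 and 13.61 and the epithelial cadherin gene Cdh1 at 8.37 and 8.25. On the withdrawal arrays Acta2 was at 8.08 and 8.20 and Cdh1 at 11.80 and 11.79, and on control arrays they were at 8.81 and 8.80 and at 11.99 and 11.89. The marker lists did not all run this way: between withdrawal and TGF-β arrays, 4 of 8 epithelial markers were higher and 2 lower (Krt8 at -0.22 and Epcam at -0.27), and of 8 mesenchymal and contractile markers 5 were lower and 3 higher (Fn1 at 0.46, Cdh2 at 0.41 and Pdgfrb at 1.07). Of these epithelial markers 75% passed an adjusted p of 0.05 (limma), beside 43.9% of all genes. Of the mesenchymal and contractile markers 100% passed. The values are RMA expression values on the log2 scale, so a difference of 1 is a doubling of signal. Array medians lay between 5.765 and 5.79, and the 2 arrays of each group correlated at 0.998 across genes. No sequencing depth exists for arrays, and the number of arrays limits the precision.

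Chemokines are small secreted or membrane-bound proteins that direct cell migration. They act through receptors with a helical bundle across the membrane that couple to Gi proteins, and each ligand class shows partial overlap in the receptors it uses. Epithelial cells make several of them, among them neutrophil attractants of the CXC class and monocyte attractants of the CC class, and NF-κB is a known activator of many of these genes. TGF-β drives mammary epithelial cells of this kind into an epithelial-to-mesenchymal transition.

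The upstream sequences of 4 genes are shown because Cxcl1, Cxcl2 and Cxcl3, close relatives from one gene cluster, share a run of bases before their start, while only Cxcl1 was called in any comparison. Each sequence is the 200 bases before the annotated transcription start, from RefSeq on GRCm38.p6, written 5′ to 3′. Capitals mark the longest run that the 250 bases before the start of Cxcl1, Cxcl2 and Cxcl3 have in common. Cxcl1 (chr5:90891045-90891244, plus strand) and Ccl20 (chr1:83116566-83116765, plus strand) fell under TGF-β, as described further on. Cxcl2 (chr5:90903699-90903898, plus strand) and Cxcl3 (chr5:90785901-90786100, plus strand) stayed below the array median.
Cxcl1: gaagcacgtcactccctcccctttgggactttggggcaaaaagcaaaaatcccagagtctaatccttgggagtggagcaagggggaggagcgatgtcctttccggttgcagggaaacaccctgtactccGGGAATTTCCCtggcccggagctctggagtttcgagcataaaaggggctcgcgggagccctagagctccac
Cxcl2: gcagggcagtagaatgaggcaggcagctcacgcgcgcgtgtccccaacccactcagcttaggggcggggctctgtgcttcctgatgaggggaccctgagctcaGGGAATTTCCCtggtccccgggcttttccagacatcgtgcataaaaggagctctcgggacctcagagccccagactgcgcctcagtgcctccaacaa
Cxcl3: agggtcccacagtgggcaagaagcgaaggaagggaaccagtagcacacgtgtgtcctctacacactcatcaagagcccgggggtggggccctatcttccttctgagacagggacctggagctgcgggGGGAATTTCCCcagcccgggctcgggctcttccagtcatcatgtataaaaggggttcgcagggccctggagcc
Ccl20: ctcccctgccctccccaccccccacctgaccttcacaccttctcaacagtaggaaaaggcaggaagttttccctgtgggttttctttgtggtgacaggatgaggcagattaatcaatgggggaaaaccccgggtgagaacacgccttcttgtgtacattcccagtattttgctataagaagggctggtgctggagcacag

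The shared run is GGGAATTTCCC, 11 bases long. It lies 71 to 61 bases before the start in Cxcl1, 97 to 87 bases before it in Cxcl2 and 73 to 63 bases before it in Cxcl3. As background, runs of this kind are known as kB elements, the binding sequence of NF-κB, and such an element is known upstream of human and mouse genes of this family. Searched on both strands over 250 bases before the start, the run occurred in 14 of 32851 RefSeq promoters (0.0426%). Among the 33 chemokine and receptor genes with a promoter there it occurred in 3, namely Cxcl1, Cxcl2 and Cxcl3. Their match was fixed in advance, since the run was defined from these 3 genes. Cxcl5, Ccl2, Ccl7, Cxcl16 and some other members had no promoter there and were not searched. The Ccl20 window does not hold these letters, which says nothing about binding by the factor. A match is a description of the sequence and not of a binding site. On their own probe sets, Cxcl2 lay between 3.67 and 4.29 and Cxcl3 between 3.09 and 3.36 on the 6 arrays. Levels from different probe sets cannot be set against each other, and whether the changes of Cxcl1 and of its relatives differ was not tested.

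**Figure D1:**
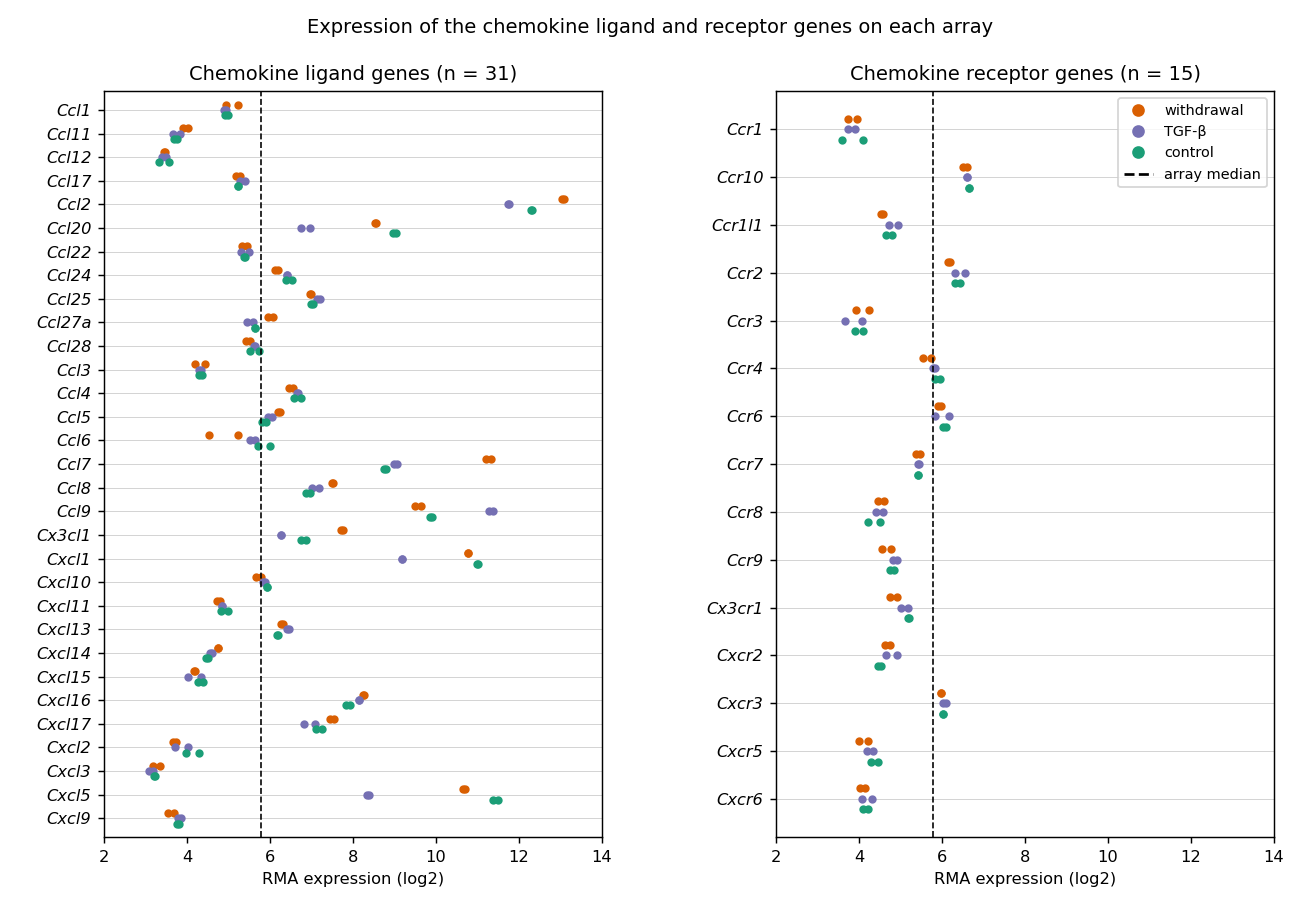
RMA expression (log2, horizontal axis) of all 46 genes, with 1 point per array, ligands on the left and receptors on the right; the dashed line is the array median. The 3 groups separate clearly for a few ligands such as Cxcl5, Ccl7 and Ccl9, while every receptor stays within a narrow range and none exceeds 6.64; levels of different genes come from different probes and are not comparable with each other.

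The first comparison, TGF-β for 11 days against control, shows what chemokine genes did when the cells were held in TGF-β. Of 46 genes, 4 rose and 5 fell, and 37 did not pass an adjusted p of 0.05 (limma, Benjamini-Hochberg over all genes). The share called was 19.6%, and over all genes tested it was 32.4% (15.0% higher and 17.5% lower). Among genes above the median, 39.1% of the 23 and 45.1% of all such genes passed. Changes of at least 1 on the log2 scale were called for 4 of 46 genes (8.70%), against 5.30% of all genes. The median difference of the 46 genes was -0.011, as it was over all genes. The split between rises and falls depended on scaling: with arrays scaled to their poly-A control RNAs 1 rose and 10 fell, and with the hybridization controls 1 rose and 8 fell. The median of all genes was -0.301 with the first and -0.170 with the second, beside -0.011 as deposited, and calls are given here relative to the arrays' common level. All 9 called genes were ligands, and without TGF-β replicate 1 or control replicate 1 the count of rises was 1.

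The second comparison, withdrawal against TGF-β, asked what followed when TGF-β was removed. Of the 46 genes 11 were higher, 4 were lower and 31 did not pass. The share called was 32.6%, and over all genes 43.9% (21.8% higher and 22.1% lower). Among genes above the median, 56.5% of the 23 and 59.9% of all such genes passed. Differences of at least 1 were called for 7 genes (15.2%), against 7.93% of all genes. With the poly-A controls the split was 9 higher and 2 lower, and with the hybridization controls it was 7 higher and 21 lower, with a median of all genes of 0.117 and -0.251, beside -0.033 as deposited. The count of lower genes was 2 without withdrawal replicate 2, TGF-β replicate 1, control replicate 1 or control replicate 2.

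The third comparison set withdrawal against control, the cells that had never received TGF-β. Of the 46 genes 8 were higher, 9 were lower and 29 did not pass. The share called was 37.0%, and over all genes 45.3% (21.7% higher and 23.6% lower). Among genes above the median, 65.2% of the 23 and 61.6% of all such genes passed. Only Ccl7 was called with a difference of at least 1 (2.17% of the 46 genes, against 8.54% of all genes). With the poly-A controls 4 were higher and 7 lower, and with the hybridization controls 3 were higher and 32 lower, with a median of all genes of -0.182 and -0.419, beside -0.042 as deposited. The count of lower genes was 4 without control replicate 1 and 5 without control replicate 2. The 3 comparisons share their arrays, so their differences for one gene are not independent.

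**Figure D2:**
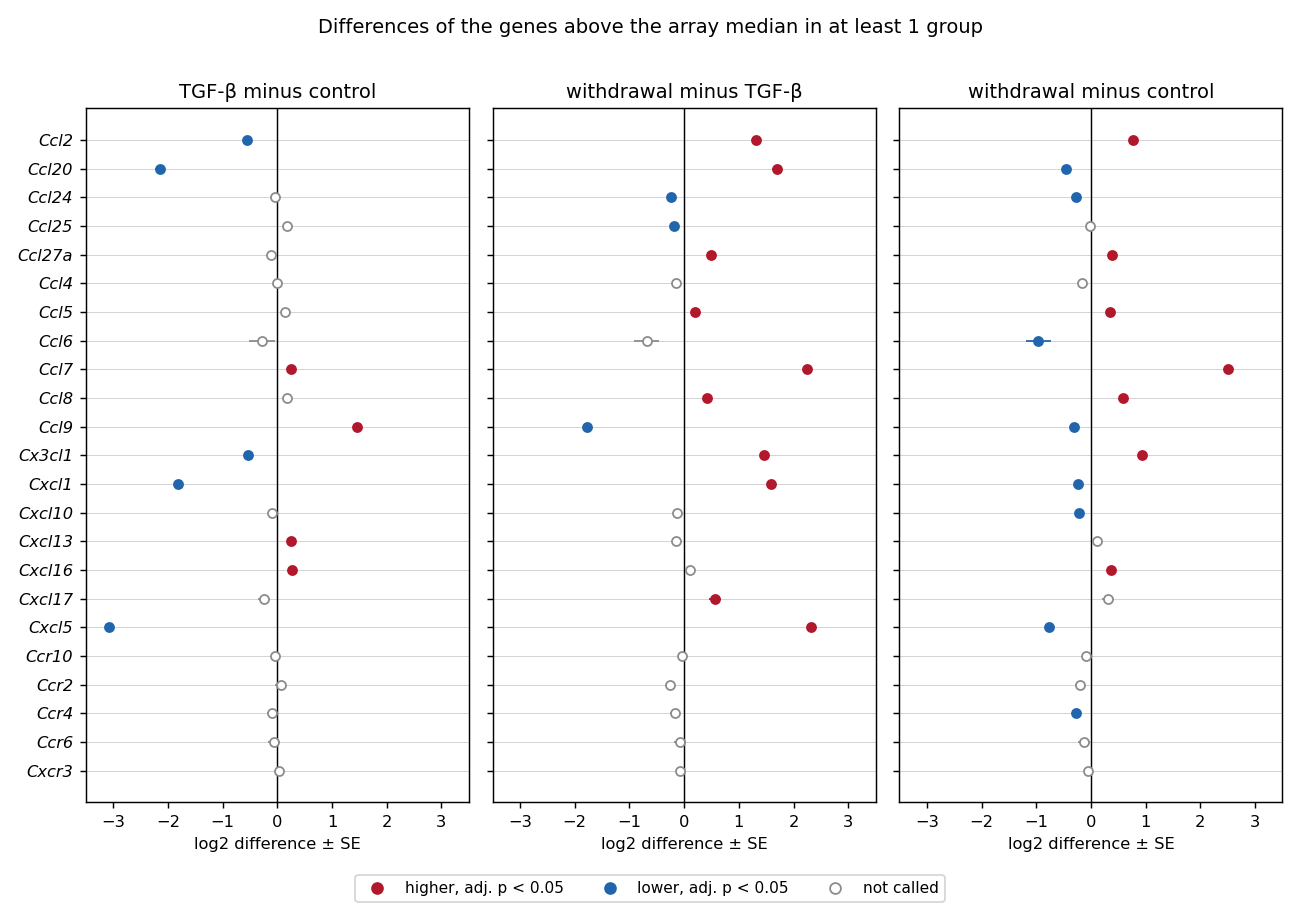
Log2 differences ± SE (horizontal axis) of the 23 genes above the array median in at least 1 group, in the 3 comparisons; filled points passed an adjusted p of 0.05, red for higher and blue for lower. Cxcl5, Cxcl1, Ccl20, Ccl2 and Cx3cl1 lie left of zero under TGF-β and right of it for withdrawal against TGF-β, and Ccl9 shows the opposite signs.

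Cxcl5 and Cxcl1 are CXC ligands that attract neutrophils through the receptor Cxcr2, and both fell under TGF-β. Cxcl5 was at 10.66 and 10.69 on withdrawal arrays, at 8.38 and 8.34 on TGF-β arrays and at 11.49 and 11.38 on control arrays. The TGF-β arrays were lowest, the withdrawal arrays lay between and no groups overlapped. Cxcl5 fell by 3.07 on the log2 scale under TGF-β (SE 0.059, adjusted p = 2.24e-06), an 8.40-fold decrease and the widest change of any of the 46 genes in the 3 comparisons. After withdrawal it was 2.32 higher than under TGF-β (adjusted p = 4.53e-06) and still lower than in control, by a log2 difference of -0.76 (adjusted p = 1.37e-04).

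Cxcl1 was at 10.77 and 10.78 on withdrawal arrays, at 9.18 and 9.19 on TGF-β arrays and at 10.99 and 11.02 on control arrays. The order of the groups was that of Cxcl5, with the withdrawal arrays close below the control arrays. Cxcl1 fell by 1.82 under TGF-β (SE 0.049, adjusted p = 5.33e-06), which is 3.54-fold. It was 1.59 higher after withdrawal than under TGF-β (adjusted p = 7.21e-06). The difference between withdrawal and control was -0.23 (adjusted p = 0.0102), and this call was lost with the mean of the gene's probe sets, with the poly-A controls and without control replicate 2. A second Cxcl1 probe set gave -1.93, 1.69 and -0.24 in the 3 comparisons. The third gave -0.69 and 0.81 for the first and second and 0.12 for withdrawal against control, which did not pass. The probe set used and the third are of classes that can also bind related transcripts.

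Ccl20 attracts cells that carry Ccr6, such as subsets of T cells and dendritic cells, and is a typical product of epithelia. It was at 8.55 and 8.54 on withdrawal arrays, at 6.97 and 6.74 on TGF-β arrays and at 8.96 and 9.04 on control arrays. The TGF-β arrays were again lowest, and the withdrawal arrays lay below the control arrays without overlap. Ccl20 fell by 2.15 under TGF-β (SE 0.084, adjusted p = 1.84e-05), a 4.43-fold decrease. It was 1.69 higher after withdrawal than under TGF-β (adjusted p = 2.88e-05), and 0.45 separated withdrawal from control (log2 difference -0.45, adjusted p = 0.00578).

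Ccl2, Ccl7 and Ccl8 are CC ligands that attract monocytes; Ccl2 and Ccl7 act mainly through Ccr2, and mouse Ccl8 is also a ligand of Ccr8. All 3 were highest after withdrawal, above both the TGF-β and the control arrays. Ccl2 was at 13.09 and 13.04 on withdrawal arrays, at 11.73 and 11.76 on TGF-β arrays and at 12.29 and 12.32 on control arrays. The groups did not overlap, and TGF-β arrays were lowest. Ccl2 fell by 0.56 under TGF-β (SE 0.051, adjusted p = 4.61e-04). It was 1.32 higher after withdrawal than under TGF-β (adjusted p = 1.37e-05) and 0.76 higher than in control (adjusted p = 7.74e-05). In bulk RNA, fewer cells of one kind and less RNA per cell cannot be told apart, here and for the other genes.

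Ccl7 showed the widest difference between withdrawal and control of the 46 genes. It was at 11.32 and 11.21 on withdrawal arrays, at 8.98 and 9.06 on TGF-β arrays and at 8.74 and 8.79 on control arrays. The withdrawal arrays stood apart and the other two groups lay close together. Ccl7 was 2.24 higher after withdrawal than under TGF-β (SE 0.063, adjusted p = 6.06e-06), which is 4.74-fold. It was 2.50 higher than in control (adjusted p = 4.33e-06), which is 5.66-fold. The rise under TGF-β was 0.26 (adjusted p = 0.0241); it turned to -0.03 with the poly-A controls and lost its call when any one TGF-β or control array was left out.

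Ccl8 was at 7.52 and 7.50 on withdrawal arrays, at 7.17 and 7.02 on TGF-β arrays and at 6.87 and 6.97 on control arrays. It was 0.41 higher after withdrawal than under TGF-β (SE 0.071, adjusted p = 0.00443) and 0.59 higher than in control (adjusted p = 9.00e-04), both lost with the hybridization controls. TGF-β against control gave 0.18 and did not pass (adjusted p = 0.120). Of this group the differences of Ccl2 and of Ccl7 after withdrawal kept their calls under every alternative tried.

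Cx3cl1 and Cxcl16 are the 2 ligands made as membrane-anchored proteins and released by metalloproteases. Cx3cl1, also called fractalkine, was at 7.71 and 7.75 on withdrawal arrays, at 6.26 and 6.27 on TGF-β arrays and at 6.86 and 6.74 on control arrays. The withdrawal arrays were highest and the TGF-β arrays lowest, without overlap. It fell by 0.54 under TGF-β (SE 0.060, adjusted p = 0.00111), was 1.46 higher after withdrawal than under TGF-β (adjusted p = 1.62e-05) and was 0.93 higher than in control (adjusted p = 6.85e-05). These calls rest on 1 of 4 probe sets. The other 3 probe sets gave between -0.05 and 0.20 under TGF-β, between 0.00 and 0.13 for withdrawal against TGF-β and between 0.08 and 0.33 for withdrawal against control, and none passed. With the mean of the probe sets the fall under TGF-β was -0.06 and was not called (adjusted p = 0.522). Which stretch of the transcript each probe set covers was not examined.

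Cxcl16, which binds Cxcr6, was at 8.26 and 8.24 on withdrawal arrays, at 8.15 and 8.15 on TGF-β arrays and at 7.83 and 7.92 on control arrays. It was 0.37 higher after withdrawal than in control (adjusted p = 0.00225) and rose by 0.27 under TGF-β (adjusted p = 0.0125), while withdrawal against TGF-β gave 0.10 (adjusted p = 0.204). Its second probe set gave 0.71, 0.47 and 0.24 for the same comparisons. The rise under TGF-β turned to -0.02 with the poly-A controls and was not called without TGF-β replicate 1, TGF-β replicate 2 or control replicate 1, and the difference from control turned to -0.01 with the hybridization controls.

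Ccl9 is a rodent CC ligand of Ccr1 that attracts myeloid cells. Under TGF-β and for withdrawal against TGF-β it ran opposite to Cxcl5, Cxcl1, Ccl20, Ccl2 and Cx3cl1. It was at 9.63 and 9.50 on withdrawal arrays, at 11.29 and 11.37 on TGF-β arrays and at 9.86 and 9.90 on control arrays. The TGF-β arrays were highest and the withdrawal arrays lay a little below the control arrays. Ccl9 rose by 1.45 under TGF-β (SE 0.065, adjusted p = 2.99e-05), which is 2.74-fold and was the only rise of at least 1 among the 46 genes in this comparison. It was lower after withdrawal than under TGF-β, by a log2 difference of -1.77 (adjusted p = 1.21e-05), or 3.40-fold. Withdrawal against control gave -0.31 (adjusted p = 0.00918), a call lost without control replicate 2 (adjusted p = 0.0558). Its second probe set gave 1.55, -1.89 and -0.33.

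**Figure D3:**
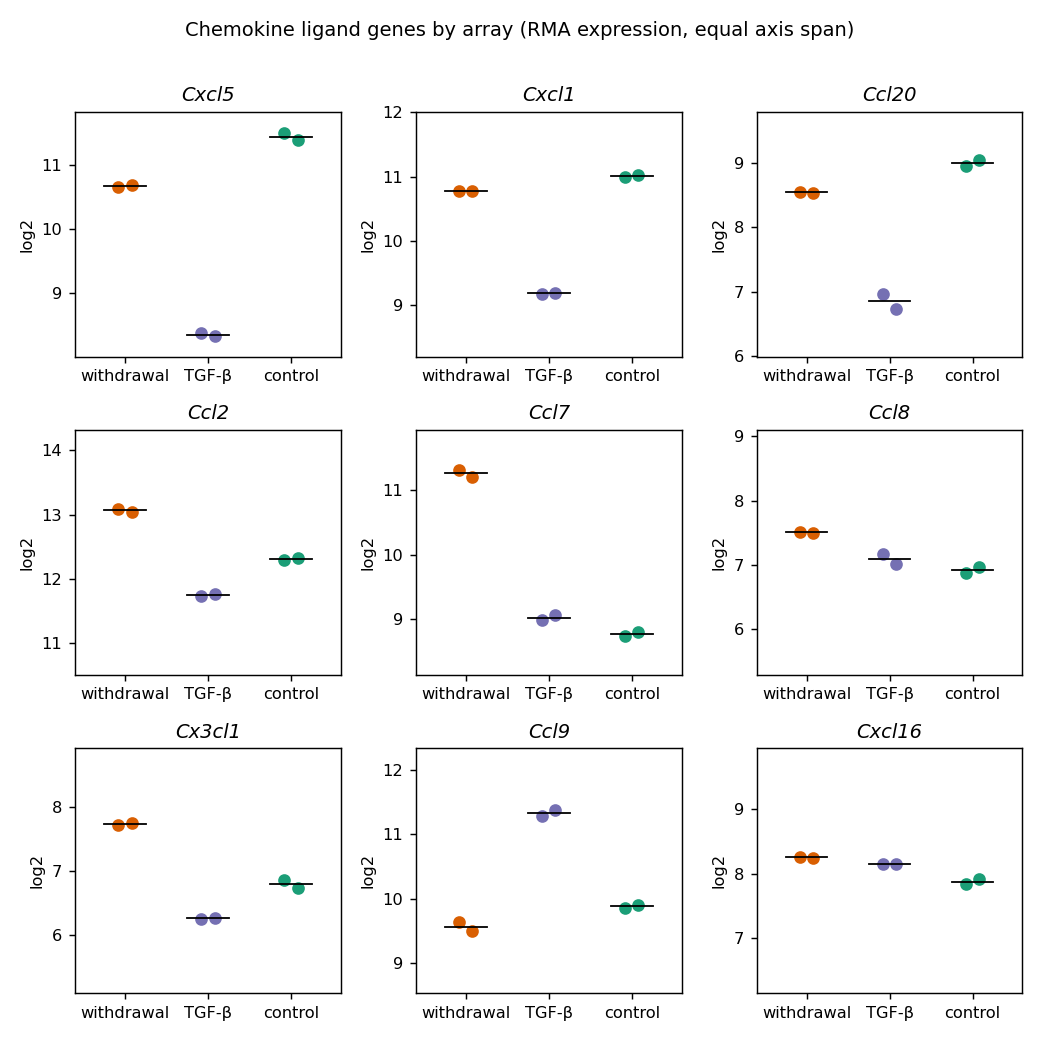
RMA expression (log2, vertical axis, the same span in every panel) of 9 ligand genes on each array, with the group mean as a bar, for withdrawal, TGF-β and control. Cxcl5, Cxcl1, Ccl20, Ccl2 and Cx3cl1 are lowest on TGF-β arrays, Ccl9 is highest there, and Ccl7 stands apart on withdrawal arrays at 11.32 and 11.21.

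**Figure D4:**
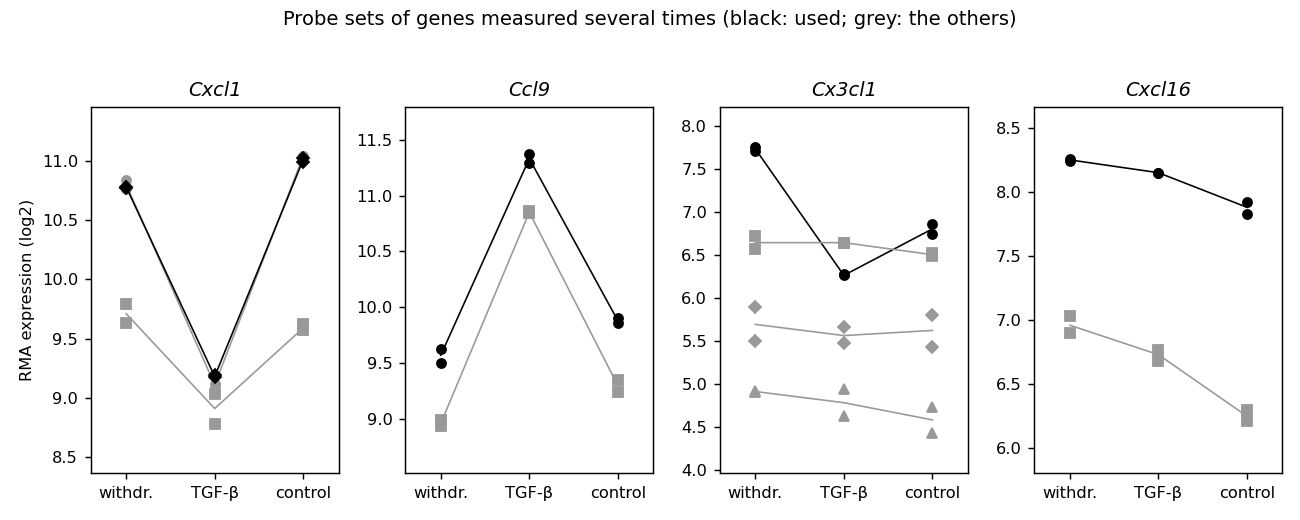
RMA expression (log2, vertical axis) of every probe set of 4 genes by group, with 1 point per array and a line through the group means; black marks the probe set used and grey the others. The probe sets of Ccl9 and of Cxcl16 run in parallel and those of Cxcl1 share their direction under TGF-β, whereas only the black probe set of Cx3cl1 separates the groups.

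The other ligands above the median differed by less than 1. Ccl27a, a ligand of Ccr10 made by epithelia, was at 6.07 and 5.96 on withdrawal arrays, at 5.58 and 5.45 on TGF-β arrays and at 5.63 and 5.64 on control arrays. It was 0.50 higher after withdrawal than under TGF-β (adjusted p = 0.00149) and 0.38 higher than in control (adjusted p = 0.00479), the first lost with the hybridization controls and the second with either set of controls. Its probe set is of a class that can bind near-identical copies, so its signal cannot be assigned to one gene with certainty. Cxcl17, a mucosal CXC ligand, was at 7.45 and 7.55 on withdrawal arrays, at 6.81 and 7.08 on TGF-β arrays and at 7.26 and 7.11 on control arrays. It was 0.56 higher after withdrawal than under TGF-β (adjusted p = 0.00659), a call kept under every alternative, and was not called against control in either case.

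Ccl5, which attracts T cells and monocytes, was at 6.23 and 6.19 on withdrawal arrays, at 5.96 and 6.05 on TGF-β arrays and at 5.81 and 5.91 on control arrays. It was 0.20 higher after withdrawal than under TGF-β (adjusted p = 0.0430) and 0.35 higher than in control (adjusted p = 0.00507), and with the hybridization controls these turned to -0.01 and -0.03. The call against TGF-β was also lost when any one array was left out. Cxcl13, the B cell attractant that binds Cxcr5, was at 6.31 and 6.27 on withdrawal arrays, at 6.46 and 6.42 on TGF-β arrays and at 6.17 and 6.19 on control arrays. It rose by 0.25 under TGF-β (adjusted p = 0.0112), which turned to -0.04 with the poly-A controls and was not called without TGF-β replicate 1 or either control array. Its second probe set, with all 6 values below the array median, gave 0.63 under TGF-β and -0.60 for withdrawal against TGF-β, both called in a fit over all probe sets.

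Ccl24 and Ccl25 were lower after withdrawal than under TGF-β. Ccl24, an eosinophil attractant, was at 6.20 and 6.13 on withdrawal arrays, at 6.40 and 6.41 on TGF-β arrays and at 6.52 and 6.38 on control arrays, with differences of -0.24 against TGF-β (adjusted p = 0.0268) and -0.28 against control (adjusted p = 0.0139). Ccl25, which guides cells to the gut and thymus through Ccr9, was at 6.97 and 6.99 on withdrawal arrays, at 7.21 and 7.14 on TGF-β arrays and at 6.98 and 7.03 on control arrays, with -0.19 for withdrawal against TGF-β (adjusted p = 0.0310). Both calls against TGF-β were lost when one withdrawal or TGF-β array was left out, whichever it was, and that of Ccl25 also without either control array. The call of Ccl24 against control was lost without withdrawal replicate 2 or control replicate 1.

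Ccl6, a rodent CC ligand beside Ccl9 on the chromosome, was at 5.24 and 4.53 on withdrawal arrays, at 5.63 and 5.51 on TGF-β arrays and at 5.99 and 5.71 on control arrays. It was lower after withdrawal than in control, by -0.96 (SE 0.230, adjusted p = 0.0169), with a wide gap between the 2 withdrawal arrays; it was -0.61 without withdrawal replicate 2 and -1.32 without withdrawal replicate 1, and without control replicate 1 it was not called (adjusted p = 0.0909). Its other probe set gave -0.31. Cxcl10, which binds Cxcr3, was at 5.67 and 5.78 on withdrawal arrays, at 5.87 and 5.83 on TGF-β arrays and at 5.94 and 5.94 on control arrays. Withdrawal against control gave -0.22 (adjusted p = 0.0252), lost without withdrawal replicate 1 or either control array. Ccl4, a CC ligand, was at 6.55 and 6.46 on withdrawal arrays, at 6.67 and 6.64 on TGF-β arrays and at 6.59 and 6.74 on control arrays, and passed in no comparison.

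Under TGF-β none of the 15 receptors passed limma's test, beside 32.4% of all genes, and 1 had an unadjusted p under 0.05. Withdrawal against TGF-β called 1 lower (6.67%, beside 43.9% of all genes) and withdrawal against control 2 lower (13.3%, beside 45.3%), with 3 of 15 under an unadjusted 0.05 in each. On the probe sets used no receptor was called higher, and the differences of the 15 ran from -0.36 to 0.29 over the 3 comparisons. Low signal compresses differences, and 10 of the 15 lay below the array median, between 3.58 and 5.46, so a change at those levels may not have been detectable.

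Among the 5 receptors above the median, Ccr4 was at 5.53 and 5.73 on withdrawal arrays, at 5.79 and 5.82 on TGF-β arrays and at 5.84 and 5.96 on control arrays. Its difference between withdrawal and control was -0.27 (adjusted p = 0.0444), a call lost under 10 of 14 alternatives, among them the omission of withdrawal replicate 1 (-0.17) or of any TGF-β or control array. Ccr10, the Ccl27a receptor, was at 6.51 and 6.60 on withdrawal arrays, at 6.60 and 6.59 on TGF-β arrays and at 6.64 and 6.64 on control arrays. Ccr6, the Ccl20 receptor, was at 5.90 and 5.98 on withdrawal arrays, at 5.84 and 6.17 on TGF-β arrays and at 6.03 and 6.09 on control arrays. These values overlapped or nearly touched between groups, and neither gene passed in any comparison.

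Cxcr3 was at 5.98 and 5.98 on withdrawal arrays, at 6.09 and 6.02 on TGF-β arrays and at 6.03 and 6.03 on control arrays, and did not pass. Ccr2, the receptor of Ccl2 and Ccl7, was at 6.18 and 6.14 on withdrawal arrays, at 6.30 and 6.56 on TGF-β arrays and at 6.32 and 6.42 on control arrays, and did not pass. Its other 3 probe sets lay between 3.05 and 3.74 on every array, below the array median, so its place above the median rests on 1 of 4 probe sets.

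Of the receptors below the median, Cx3cr1, which binds Cx3cl1, was at 4.75 and 4.91 on withdrawal arrays, at 5.18 and 5.01 on TGF-β arrays and at 5.21 and 5.18 on control arrays. It was lower after withdrawal, by -0.27 against TGF-β (adjusted p = 0.0449) and -0.36 against control (adjusted p = 0.0136), both lost without withdrawal replicate 1, control replicate 1 or control replicate 2, and the first also without TGF-β replicate 1, where it was -0.18. Cxcl14 was the only ligand below the median with a call. It was at 4.75 and 4.75 on withdrawal arrays, at 4.60 and 4.56 on TGF-β arrays and at 4.47 and 4.51 on control arrays. Its differences of 0.17 against TGF-β (adjusted p = 0.0382) and 0.26 against control (adjusted p = 0.00700) turned to -0.09 and -0.08 with the mean of its 2 probe sets and to -0.05 and -0.12 with the hybridization controls. On the probe sets used, the remaining 21 genes below the median passed in no comparison, and all 23 lay between 3.09 and 5.73. Ccr9 had 5 probe sets, and those not used gave calls: 2 were higher under TGF-β (0.49 and 0.46), 2 were lower for withdrawal against TGF-β (-0.42 and -0.27), and 2 were called in opposite directions for withdrawal against control (0.25 and -0.22).

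Over all genes, 12140 of 18193 lay above the array median in at least 1 group. Of all 15 receptors 10 lay below it in all groups, and among them were several receptors of the ligands that moved. Ccr2, the receptor of Ccl2 and Ccl7, and Ccr6, the receptor of Ccl20, lay above it, as given before. Cxcr2, the receptor of Cxcl5 and Cxcl1, was at 4.75 and 4.62 on withdrawal arrays, at 4.92 and 4.64 on TGF-β arrays and at 4.53 and 4.45 on control arrays. Ccr1, the receptor of Ccl9, was at 3.74 and 3.95 on withdrawal arrays, at 3.74 and 3.90 on TGF-β arrays and at 4.09 and 3.58 on control arrays. Cxcr6, the receptor of Cxcl16, lay between 4.03 and 4.32 on the 6 arrays. Cxcr2, Ccr1 and Cxcr6 passed in no comparison.

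Several of these genes are neighbours, and in each run described here some genes were called and others were not. Most of the uncalled neighbours lay below the array median, where a change may not have been detectable. Whether neighbours moved together was not tested. In RefSeq's gene order on chromosome 5 (GRCm38.p6), Cxcl5, Ppbp, Pf4, Cxcl3, Cxcl15, Cxcl1 and Cxcl2 follow one another with no other coding gene between them. Cxcl5 and Cxcl1 fell under TGF-β and were higher after withdrawal than under TGF-β, whereas Cxcl3, Cxcl15 and Cxcl2 were below the median and passed in no comparison. Ppbp, a CXC ligand known from platelets, was at 4.40 and 4.50 on withdrawal arrays, at 5.24 and 5.55 on TGF-β arrays and at 6.20 and 6.53 on control arrays. It fell by 0.97 under TGF-β (adjusted p = 0.00363) and was lower again after withdrawal, by -0.95 against TGF-β (adjusted p = 0.00272) and -1.92 against control (adjusted p = 1.25e-04). Pf4, also a platelet ligand, lay between 4.80 and 5.04 and did not pass.

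On chromosome 11, Ccl2, Ccl7, Ccl11, Ccl12, Ccl8 and Ccl1 form a run of the same kind. Ccl2, Ccl7 and Ccl8 were higher after withdrawal than in both other groups, and Ccl11, Ccl12 and Ccl1 were below the median and did not pass. Further along, Ccl5, Ccl9, Ccl6, Ccl3 and Ccl4 lie side by side. There the difference of withdrawal from TGF-β was 0.20 for Ccl5, -1.77 for Ccl9, -0.68 for Ccl6 (not called, adjusted p = 0.0578), -0.00 for Ccl3 and -0.14 for Ccl4. On chromosome 8, Cx3cl1 lies between Ccl22 and Ccl17, both below the median and uncalled.

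**Figure D5:**
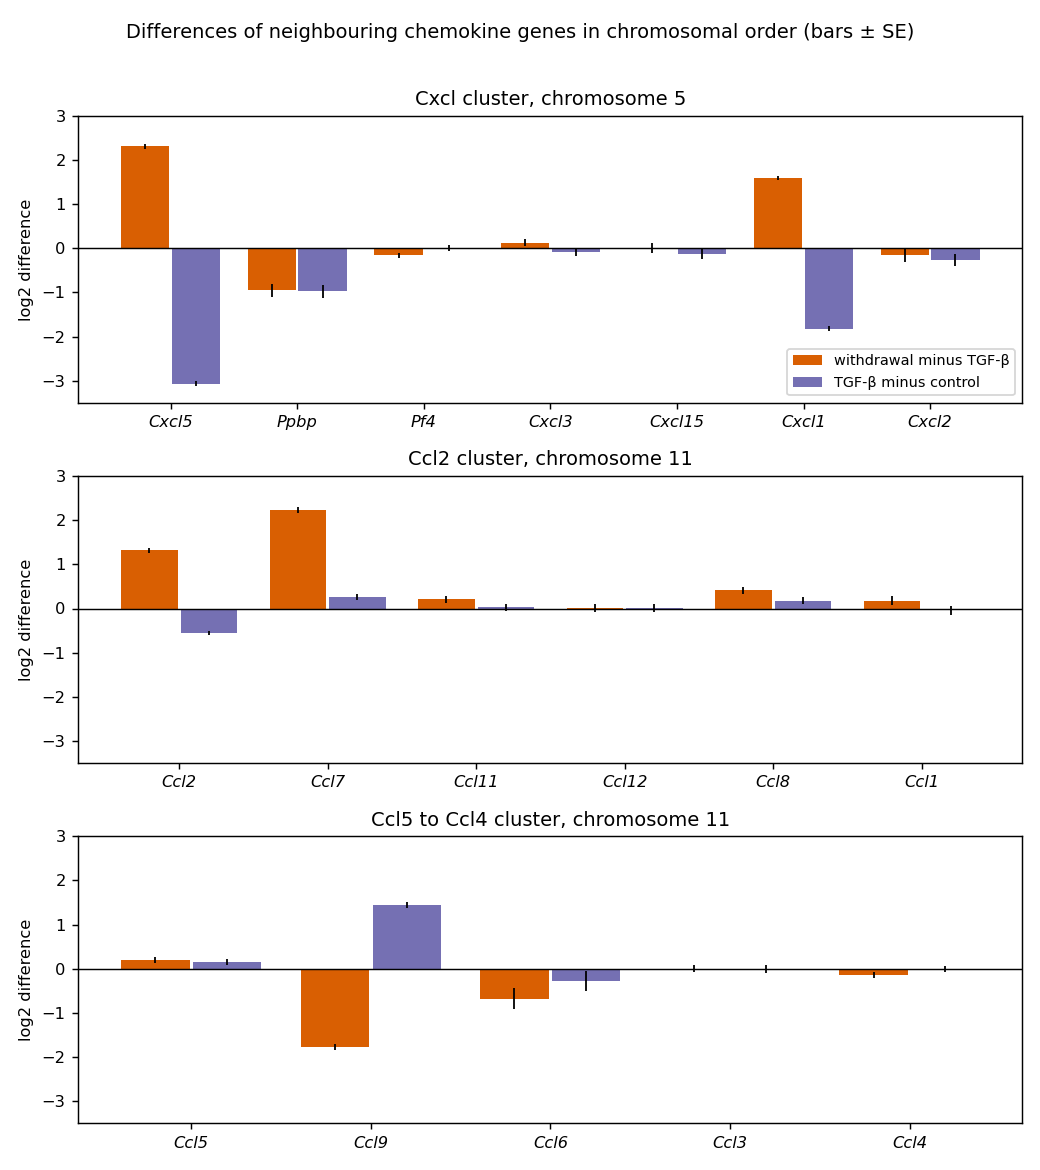
Log2 differences (bars, ± SE) of neighbouring chemokine genes in chromosomal order, withdrawal minus TGF-β and TGF-β minus control, for 3 runs of adjacent coding genes. Cxcl5 (2.32 and -3.07) and Cxcl1 in the first run, Ccl2 in the second and Ccl9 in the third have bars of opposite sign; Ccl7 and Ccl8 have bars of the same sign, and most other neighbours lie near zero.

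Around these genes stand pathway lists, which were chosen with earlier results of these data known. Their counts and shares are therefore descriptions only. Of 30 NF-κB pathway and inflammatory target genes measured, 13 rose, 4 fell and 13 did not pass under TGF-β. For withdrawal against TGF-β 7 were higher and 9 lower, and for withdrawal against control 12 were higher and 6 lower. The shares called in the 3 comparisons were 56.7%, 53.3% and 60.0%, beside 32.4%, 43.9% and 45.3% of all genes. The list's median difference under TGF-β was 0.168, beside -0.011 over all genes, and -0.122 with the poly-A controls. Icam1, a leukocyte adhesion gene, was at 4.26 and 5.25 on TGF-β arrays and 6.74 and 6.80 on control arrays and fell by 2.01 (adjusted p = 0.00340). Il6, which lay below the array median in every group, rose by 1.20. Csf1, the macrophage growth factor gene, rose by 1.16 and Rela, an NF-κB subunit, by 0.66. Vcam1, another adhesion gene, was at 12.21 and 12.21 on withdrawal arrays, 9.23 and 9.30 on TGF-β arrays and 9.70 and 9.68 on control arrays. It was 2.95 higher after withdrawal than under TGF-β (adjusted p = 1.75e-06) and 2.52 higher than in control. Tnfaip3, an NF-κB inhibitor, differed by -1.28 and Il6 by -0.95 between withdrawal and TGF-β. After withdrawal Rela was 1.34 higher than in control, Ikbkg, a subunit of the activating kinase, 1.13 higher and Relb 1.12 higher.

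Of 14 atypical and other chemoattractant receptors and ligands, 2 rose and 1, Ppbp, fell under TGF-β. For withdrawal 1 was higher and 3 lower than under TGF-β, and 1 higher and 4 lower than in control. The shares called were 21.4%, 28.6% and 35.7%, below the 32.4%, 43.9% and 45.3% of all genes. Cmklr1, the chemerin receptor, was at 7.22 and 7.16 on withdrawal arrays, at 5.98 and 5.97 on TGF-β arrays and at 5.41 and 5.34 on control arrays. It rose by 0.60 under TGF-β and was 1.22 higher after withdrawal than under TGF-β, with no overlap between groups. The scavenging receptor gene Ackr3 rose by 0.32 under TGF-β and differed by -0.94 between withdrawal and TGF-β and by -0.62 between withdrawal and control. Mif differed by -0.40 between withdrawal and TGF-β.

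Of 29 genes of chemokine receptor signalling, 6 rose and 6 fell under TGF-β, 9 were higher and 6 lower after withdrawal than under TGF-β, and 7 were higher and 6 lower than in control. The shares called were 41.4%, 51.7% and 44.8%, beside 32.4%, 43.9% and 45.3% of all genes. Plcb4, a phospholipase C, was at 9.82 and 9.99 on withdrawal arrays, at 8.74 and 8.78 on TGF-β arrays and at 6.57 and 6.67 on control arrays. It rose by 2.14 under TGF-β and was 1.14 higher again after withdrawal. The Rac activator Tiam1 fell by 2.07 under TGF-β and the inhibitory G protein gene Gnai1 by 1.24, while the receptor kinase Grk5 rose by 1.38. Between withdrawal and TGF-β, Arrb1, which encodes a β-arrestin, differed by 1.34, Grk6 by -1.17 and Grk5 by -1.06.

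Of 14 genes that process or present chemokines, 4 rose and 4 fell under TGF-β. After withdrawal 9 were higher and 1 lower than under TGF-β, and 8 were higher and 2 lower than in control. The shares called were 57.1%, 71.4% and 71.4%, beside 32.4%, 43.9% and 45.3% of all genes. Sdc4, a heparan sulphate proteoglycan that can hold chemokines at the cell surface, fell by 0.98 under TGF-β and was 1.36 higher after withdrawal. Mmp14, a membrane protease, rose by 1.21 under TGF-β and Ctsc, a cathepsin, fell by 0.97. Ctsb, another cathepsin, was at 13.38 and 13.40 on withdrawal arrays, at 11.84 and 11.84 on TGF-β arrays and at 11.69 and 11.69 on control arrays, and was 1.55 higher after withdrawal than under TGF-β. The list's median difference was 0.321 for withdrawal against TGF-β, beside -0.033 over all genes; it was 0.102 with the hybridization controls and 0.470 with the poly-A controls.

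Of 14 interferon pathway genes, 6 rose and 4 fell under TGF-β, 4 were higher and 2 lower after withdrawal than under TGF-β, and 6 were higher and 4 lower than in control. The shares called were 71.4%, 42.9% and 71.4%, beside 32.4%, 43.9% and 45.3% of all genes. The kinase gene Jak2 fell by 0.93 and Socs3, a feedback inhibitor, by 0.77 under TGF-β. The guanylate-binding genes Gbp3 and Gbp2 rose by 0.88 and 0.84, with Gbp3 below the array median in every group. The interferon receptor genes Ifngr2 and Ifnar1 were 1.39 and 0.88 higher after withdrawal than under TGF-β. The 2 lower genes in that comparison, Socs1 and Irf1, differed by -0.63 and -0.55. On the probe sets used, the interferon-induced ligands Cxcl9 and Cxcl11 stayed below the median in all groups and passed in no comparison. A second Cxcl9 probe set gave -0.34 for withdrawal against control, called by limma in a fit over all probe sets (adjusted p = 0.0272).

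Markers of other cells were set beside these values. Of 16 leukocyte markers measured, 7 lay above the array median on withdrawal arrays, 6 on TGF-β arrays and 6 on control arrays. Their summed log2 levels were 91.9 and 91.6 on withdrawal arrays, 90.5 and 90.1 on TGF-β arrays and 91.6 and 92.2 on control arrays. The pan-leukocyte gene Ptprc was between 3.79 and 4.05 on every array, near the low end of the scale. Cd14, a lipopolysaccharide co-receptor, was at 11.48 and 11.54 on withdrawal arrays, at 9.66 and 9.64 on TGF-β arrays and at 11.22 and 11.24 on control arrays. It fell by 1.58 under TGF-β (adjusted p = 9.35e-06) and was 1.86 higher after withdrawal than under TGF-β. The ligands Cxcl5, Cxcl1, Ccl20, Ccl2 and Cx3cl1 had the same signs in these comparisons. Against control after withdrawal Cd14 was 0.28 higher (-0.09 with the hybridization controls). Of these ligands Ccl2 and Cx3cl1 were also higher there (0.76 and 0.93), whereas Cxcl5, Cxcl1 and Ccl20 were lower (-0.76, -0.23 and -0.45). Under TGF-β 14 of the 16 leukocyte markers did not pass, and Cd52 rose by 0.28 (-0.01 with the poly-A controls). For withdrawal 2 were higher and 0 lower than under TGF-β, and 2 higher and 1, Tyrobp at -0.41, lower than in control. Cd68 was 1.05 higher after withdrawal than under TGF-β. Of 6 endothelial markers, 1 lay above the median in each group. The summed levels of 8 epithelial markers were 83.3 and 83.2 on withdrawal arrays, 72.5 and 72.8 on TGF-β arrays and 87.1 and 86.8 on control arrays. Those of 8 mesenchymal and contractile markers were 78.1 and 77.8 on withdrawal arrays, 93.7 and 94.1 on TGF-β arrays and 69.4 and 69.7 on control arrays. The part of any of these markers in the chemokine differences was not tested.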

How the data were processed

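Total RNA of NMuMG cells was labelled with a 3′ IVT kit after addition of poly-A control RNAs and measured on 6 Affymetrix mouse expression arrays, per the labels' protocols. The authors deposited 1 log2 value per probe set and array, and the submitters' processing notes name RMA for them; its version, and whether all arrays were normalised as one set, is not given here. Probe sets were named from the platform annotation: of 45101, 34945 had 1 symbol, 932 several and 9160 none, and 64 were controls. Each of 18193 genes was represented by its probe set with the highest mean. A linear model of the 3 groups was fitted to all genes with limma 3.58.1 in R 4.3.3 (lmFit, eBayes; 3 residual and 2.857 prior degrees of freedom), with Benjamini-Hochberg adjustment over all genes and a threshold of 0.05. The fit was tested on simulated data. Every gene above the array median in at least 1 group was to be named with its 6 values, and others if called; from each pathway list, counts over all measured genes and up to 4 called genes of largest difference. Tried alternatives were a replicate block, an intensity trend, a filter on dim genes, other probe set choices, scaling to 24 poly-A or 18 hybridization control probe sets, cyclic loess, a fit to the 2 groups compared, omission of each array, and, chosen after seeing the data, a fit over all probe sets. The shared upstream run was also looked for after seeing the data. The genes and lists were chosen with earlier results of these data known.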

Additional observations from a re-analysis of the deposited data

How the results depend on the processing

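Of 41 calls on named chemokine genes, 18 were kept under every alternative that measured them (5 of 9 for TGF-β against control, 8 of 15 for withdrawal against TGF-β, 5 of 17 for withdrawal against control), 23 lost the call or turned under at least 1, and 18 uncalled differences gained a call under at least 1. Scaling to the poly-A controls gave 1 rise and 10 falls under TGF-β, 2 lower for withdrawal against TGF-β and 4 higher for withdrawal against control. Scaling to the hybridization controls gave 1 rise and 8 falls under TGF-β, 7 higher and 21 lower for withdrawal against TGF-β, and 3 higher and 32 lower for withdrawal against control, with all genes shifted by the construction of the scaling. An intensity trend and a fit to the 2 groups compared each gave 2 lower for withdrawal against TGF-β, and leaving out the dimmest 40% of genes gave 5 lower for withdrawal against control, since fewer genes were tested. Leaving out 1 array gave 1 to 4 rises and 5 to 6 falls under TGF-β, 9 to 10 higher and 2 to 4 lower for withdrawal against TGF-β, and 8 to 10 higher and 4 to 9 lower for withdrawal against control; a lone array is then assumed to vary like the others.

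Directions that turned with the poly-A controls were, under TGF-β, Ccl7 at -0.03, Cxcl13 at -0.04 and Cxcl16 at -0.02. With the hybridization controls, Ccl5 turned to -0.01 and Cxcl14 to -0.05 for withdrawal against TGF-β, and Ccl5 to -0.03, Cxcl14 to -0.12 and Cxcl16 to -0.01 for withdrawal against control. For Cxcl14 the mean of its probe sets gave -0.09 against TGF-β and -0.08 against control, and its other probe set alone gave -0.35 and -0.42; the cause was not tested. The deviations of arrays with the same replicate number correlated at -0.016, 0.007 and -0.004 across genes. No shift shared by replicate number was seen, but this cannot show whether same-numbered arrays were handled together. With a replicate block, 5 genes rose and 5 fell under TGF-β, 9 were higher and 4 lower for withdrawal against TGF-β, and 8 were higher and 10 lower for withdrawal against control. Of the listed pathway genes, Relb, Ikbkb, Tnfaip3 and Mmp9, which rose under TGF-β, turned with the poly-A controls. With the hybridization controls Gnaq and Rac1 turned for withdrawal against TGF-β, and Ikbkb, Ikbke, Birc3, Gng12, Grk5 and Sdc4 for withdrawal against control. In that last comparison the median of the NF-κB list was 0.155 as deposited and -0.223 with the hybridization controls. The median of all genes was -0.042 and -0.419. Low signal limits what can be said of the 23 genes below the array median.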
